A study of Mus musculus with 14 samples.

Results

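Dusp1-positive ganglion cells were the cells whose signal for Dusp1 was 1000 or more, and 4 of the 14 single retinal ganglion cells (RGCs) of the series met that rule. They were cells 2, 7, 8 and 9, and the other 10 cells are called Dusp1-negative. The cells came from adult mice of a mixed background that carried both PV-Cre, made in 129P2/OlaHsd animals, and the Ai9 reporter. The labels place Ai9 on C57BL/6 and 129 SV, whereas the study's methods call it congenic on C57BL/6J. In these mice Cre recombinase follows the parvalbumin gene Pvalb and switches on the red protein tdTomato, so that a red cell has expressed Pvalb at some time and need not express it when picked. All 14 cells shared this genotype, and the same steps are described for all of them. Arrays were hybridized at facilities of both Iowa State and the University of Iowa. No source used here gives the facility of a cell. Papain was used to part the cells of the retina, and each red cell was drawn into a glass pipette and lysed at once, with no time in culture. The labels name no drug, light stimulus or injury for any cell. They say that retinas were taken at several time points, and no source gives the time or the animal of a cell. Each cell was amplified and measured on 1 Affymetrix Mouse430_2 array.

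The sets were formed from a measured value. All differences between them are therefore descriptions of these 14 cells and were not tested. A signal is the MAS5 intensity of a gene's brightest probe set. A gene was called detected in a cell at a signal 8 times that array's median, a limit between 64.2 and 439.7 among the cells. A difference of medians is the median of the 4 cells minus the median of the 10, on log2(signal + 32). Every array had the same trimmed mean signal, so a signal is relative to the other transcripts of its cell, and the amount per cell cannot be read from it. A gene that was not detected may have been lost in amplification.

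Immediate early genes are transcribed within minutes of a stimulus from factors that are already present in the cell, and their mRNAs are short lived. In neurons, calcium entry and the MAP kinase cascade act on CREB at cyclic AMP response elements and on SRF with its partners at CArG boxes to start them. DUSP1 is a nuclear phosphatase that takes phosphate off the MAP kinases ERK, JNK and p38 and so closes the loop, and its gene also answers to stress and to glucocorticoids. FOS pairs with JUN proteins to form the AP-1 factor, and EGR1 is a zinc finger factor. In the retina these genes are known to respond to light, to cell isolation and to optic nerve damage.

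Dusp1 divided the cells with a wide gap. Its only probe set gave signals of 10579 in cell 2, 16734.5 in cell 7, 15485 in cell 8 and 12695 in cell 9. In the Dusp1-negative cells the signals ran from 2.08 to 111, with a median of 13.4. The lowest positive value was thus 10579 in cell 2 and the highest value below the threshold was 111 in cell 1, where the detection limit was itself highest. No cell lay between these values. Dusp1 was the only gene of 18193 that was detected in exactly these 4 cells (0.0055% of genes), which is the choice of the cells and no finding.

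The name "activated" held for some of the 4 cells. Fos gave 8.47 in cell 2, 11864 in cell 7, 10644 in cell 8 and 711 in cell 9. None of the 10 Dusp1-negative cells had detectable Fos, and their signals ran from 1.04 to 83.3, with a median of 6.95. Cells 7 and 8 were thus high, cell 9 was lower, and cell 2 lay among the Dusp1-negative cells. Egr1 gave 8.71 in cell 2, 4218 in cell 7, 933 in cell 8 and 24.8 in cell 9. The Dusp1-negative cells had Egr1 signals of 0.97 to 419, with a median of 15.2, and the highest, in cell 6, was above the detection limit. Besides Egr1, 3 genes (4 in all, or 0.022%) were detected in exactly cells 6, 7 and 8. Cells 7 and 8 therefore carried all 3 marker genes, cell 9 carried Dusp1 and Fos, and cell 2 carried Dusp1 alone. Because of cell 2, the cells are named here by Dusp1 and not as activated or quiet.

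**Figure D1:**
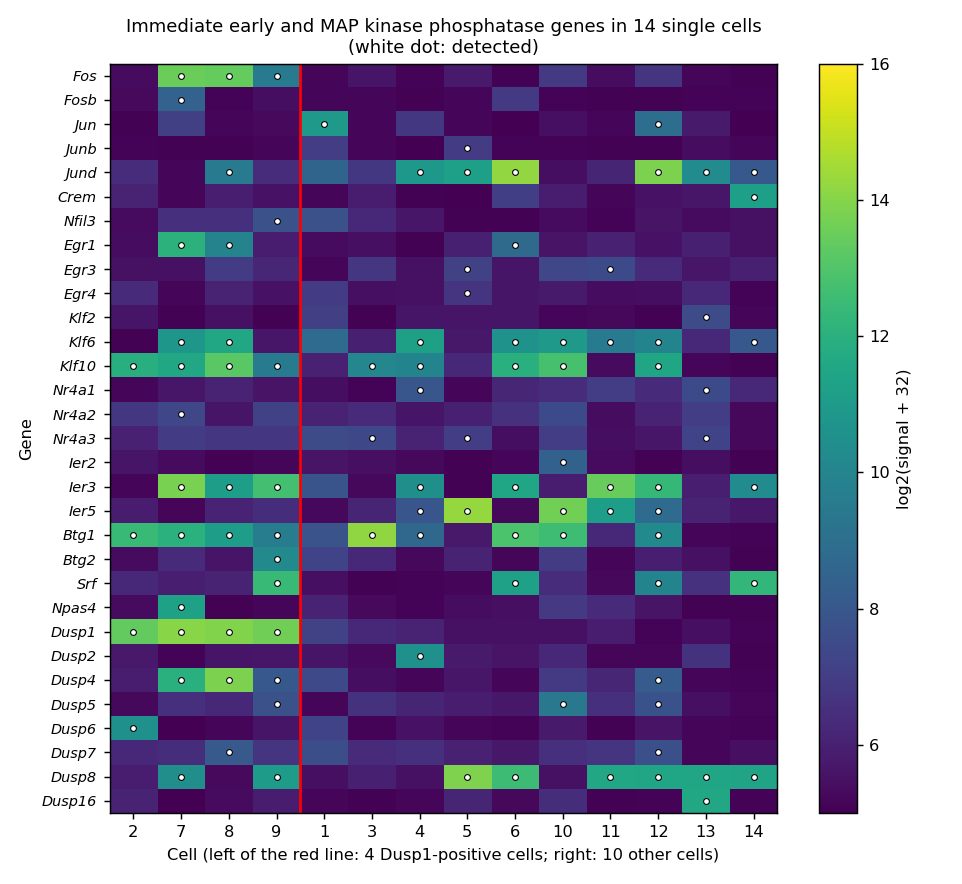
Signal of each immediate early and MAP kinase phosphatase gene that was detected in any of the 14 cells, as colour on log2(signal + 32), with 1 row per gene and 1 column per cell. White dots mark detection, and the red line parts the 4 Dusp1-positive cells from the other 10. Fos is dotted in cells 7, 8 and 9 only, Egr1 in cells 6, 7 and 8, and Klf10 and Btg1 in all 4 Dusp1-positive cells and in 5 others.

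Promoter sequence is given for 4 of these genes. Each line holds the 250 bases before the start site from RefSeq (GRCm38.p6), 5′ to 3′ on the strand of the gene, with capitals for the cyclic AMP response element TGACGTCA or its half-site TGACG, searched on both strands (CGTCA on the other). Dusp1 is shown as the gene that formed the sets and Fos as a marker detected in 3 of the 4 cells. Btg2 is shown as an early gene seen in 1 Dusp1-positive cell. Dusp8 is a family member with the element, detected in 6 Dusp1-negative cells and in the Dusp1-positive cells 7 and 9. Dusp1 is at chr17:26508473-26508722 (minus strand), Fos at chr12:85473640-85473889 (plus), Btg2 at chr1:134079156-134079405 (minus) and Dusp8 at chr7:142095285-142095534 (minus).
Dusp1: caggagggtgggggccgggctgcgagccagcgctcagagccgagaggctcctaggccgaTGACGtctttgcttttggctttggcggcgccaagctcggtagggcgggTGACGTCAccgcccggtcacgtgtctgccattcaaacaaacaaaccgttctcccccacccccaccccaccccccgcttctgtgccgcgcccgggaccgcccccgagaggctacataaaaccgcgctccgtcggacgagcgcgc
Fos: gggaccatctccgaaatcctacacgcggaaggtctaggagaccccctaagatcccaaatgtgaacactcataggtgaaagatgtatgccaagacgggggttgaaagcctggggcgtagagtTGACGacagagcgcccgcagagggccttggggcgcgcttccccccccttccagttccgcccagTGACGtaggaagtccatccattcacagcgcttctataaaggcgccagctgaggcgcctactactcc
Btg2: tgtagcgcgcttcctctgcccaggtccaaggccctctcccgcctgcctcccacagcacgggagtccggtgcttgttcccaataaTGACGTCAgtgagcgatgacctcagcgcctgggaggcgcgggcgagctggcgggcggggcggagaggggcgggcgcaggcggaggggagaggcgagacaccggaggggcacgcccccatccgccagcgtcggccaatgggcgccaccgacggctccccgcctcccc
Dusp8: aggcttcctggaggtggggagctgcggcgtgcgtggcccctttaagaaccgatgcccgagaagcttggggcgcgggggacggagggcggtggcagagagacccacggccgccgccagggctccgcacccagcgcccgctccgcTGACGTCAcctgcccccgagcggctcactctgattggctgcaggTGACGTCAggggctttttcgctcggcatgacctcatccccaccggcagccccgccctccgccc
The Dusp1 window held the full element, starting at position -143 from the start site, and a half-site at -191. The Fos window held half-sites at -129 and -66 and no full element. Btg2 held the full element at -166, and Dusp8 held it at -107 and -63. The full element was in 1.55% of all 32851 promoters in the table and a half-site, which every full element contains, in 17.8%. These letters are a description of the sequence and not of binding. Of the early and phosphatase genes in the table, Maff, which no cell showed, also held the full element.

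Of the FOS, JUN and related bZIP genes, 14 were measured and 7 were detected in any cell. Only Fos was mostly detected in the Dusp1-positive cells, that is, detected in at least 3 of the 4 and at most 2 of the 10 with medians at least 2 log2 units apart, a rule met by 1.07% of all genes. Fosb, another member of the FOS family, was detected in cell 7 alone, at 315. The JUN genes did not follow Fos. Jun, the main partner of FOS, was at 1.01 in cell 2, 105 in cell 7, 4.45 in cell 8 and 6.81 in cell 9, below the limit in each, and was detected only in cells 1 and 12 of the Dusp1-negative cells, at 1949 and 477. Junb was detected in cell 5 alone. Jund, which is made steadily in many neurons, was at 51.7 in cell 2, 5.09 in cell 7, 722 in cell 8 and 52.6 in cell 9. Its signals in the Dusp1-negative cells were 10.9 to 18746, with a median of 788, and it was detected in 6 of the 10 with a difference of medians of -3.02. Crem was detected in cell 14 alone and Nfil3, a repressor, in cell 9 alone. The stress factor Atf3, the FOS relatives Fosl1 and Fosl2, Maff, Mafk, Cebpb and Cebpd were detected in none of the 14 cells.

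The zinc finger and other early genes gave 19 measured and 16 detected members. None met the rule for genes mostly detected or mostly missing in the Dusp1-positive cells. Klf10, a TGF-beta responsive repressor, was detected in all 4, at 3768 in cell 2, 3012 in cell 7, 9193 in cell 8 and 680.0 in cell 9. It was also detected in 5 of the 10 Dusp1-negative cells, whose signals were 1.64 to 7194, with a median of 509, and the groups overlapped. Btg1, which restrains cell growth, behaved alike with 5368 in cell 2, 4116 in cell 7, 2204 in cell 8 and 768 in cell 9 and a range of 2.71 to 18706, with a median of 287. Ier3, an early gene tied to survival, was at 3.57 in cell 2, 13998 in cell 7, 2278 in cell 8 and 6774 in cell 9, so that cell 2 lacked it, while 5 of the 10 had it. Its signals in the 10 cells were 1.53 to 10963, with a median of 724. The differences of medians were 3.62 for Klf10, 3.32 for Btg1 and 2.86 for Ier3.

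Several early genes marked single cells. Npas4, a neuron-specific factor that calcium entry induces, was at 2501 in cell 7 and was detected nowhere else. Nr4a2, an orphan nuclear receptor, was also detected in cell 7 only, at 127.9, close to the limit, and its other probe sets were detected in no cell. In cell 9, Btg2 reached 1213 and Srf, the CArG box factor, 5549. Another probe set of Btg2 was detected in cell 7 and not in cell 9. Srf was detected as well in 3 Dusp1-negative cells. Klf6 was detected in cells 7 and 8 of the 4 and in 6 of the 10. Ier5 was detected in 0 of the 4 and 5 of the 10, where cell 5 held the highest signal of 19683. Nr4a1, Nr4a3, Egr3, Egr4, Ier2 and Klf2 were also detected only in Dusp1-negative cells, in 1 to 3 cells each. Egr2, Klf4 and Myc were detected in no cell, although another probe set of Klf4 was detected in cell 7, at 176.

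Effectors of activity made a further list of 28 measured genes, of which 20 were detected. Arc, the synaptic gene that most often reports neuronal activity, was among the 8 that no cell showed, with Ptgs2, Sik1, Rasd1, Inhba, Ccn1, Ccn2 and Trib1. Sgk1, a kinase induced by activity and by glucocorticoids, was at 2573 in cell 2, 148 in cell 7, 2267 in cell 8 and 13.8 in cell 9. Detection in 3 of the 4 stood beside 3 of the 10, with Dusp1-negative signals of 0.72 to 4767, with a median of 18.4. Bdnf, the neurotrophin, was detected in cells 7 and 9, at 1480.5 and 3269.6, and in 4 Dusp1-negative cells up to 3934. Rgs4, a brake on G protein signalling, was detected in all 14 cells. Its signals in the 4 were 16904 in cell 2, 12193 in cell 7, 18127 in cell 8 and 15017.5 in cell 9, against 185 to 17613, with a median of 7862. Nptx1, a secreted synaptic protein, was also detected in every cell and had a difference of medians of 1.31. Neither Homer1 nor Nptx2 was detected in a Dusp1-positive cell.

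Dusp4 was the phosphatase gene whose detection came closest to that of Dusp1. It encodes another nuclear MAP kinase phosphatase and was at 27.6 in cell 2, 4071 in cell 7, 14462 in cell 8 and 230.2 in cell 9. Among the Dusp1-negative cells it was detected only in cell 12, with signals from 1.99 to 265, with a median of 14.7. The difference of medians was 4.48, and cell 2 was again the Dusp1-positive cell without it. Dusp6, the cytoplasmic phosphatase of ERK, was detected in cell 2 alone, at 1442, and lay between 0.72 and 16.7 in the other 3 Dusp1-positive cells. Dusp5 was detected in cell 9 at 179 and in cells 10 and 12. Dusp7 was detected in cell 8 and in cell 12. Dusp8, a phosphatase directed at JNK and p38, went the other way at 26.6 in cell 2, 1335 in cell 7, 6.41 in cell 8 and 2060.0 in cell 9. It was detected in 6 of the 10 other cells, with signals of 11.3 to 15146, with a median of 2755 and a difference of medians of -3.30, although its other probe sets were detected in cells 2, 3 and 6 and in cell 3 instead. Dusp2 was detected in cell 4 only and Dusp16 in cell 13 only. Dusp9, Dusp10 and Dusp14 were detected in none.

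Counted together, the early, effector and phosphatase lists held 70 genes besides Dusp1. Cells 7, 9 and 8 showed 22, 20 and 18 of them and cell 2 showed 11. The Dusp1-negative cells showed 8 to 26, with a median of 12.5. Cell 12, which was Dusp1-negative, showed the most. Depth differed too. The Dusp1-positive cells had 4069 to 5892 detected genes and the others 2540 to 6849, with medians of 5203.5 and 3986.5. As a share of all detected genes, the 70 genes made up 0.214% in cell 2, 0.373% in cell 7, 0.442% in cell 8 and 0.380% in cell 9, against 0.188% to 0.512% in the Dusp1-negative cells. The shares overlapped fully, and the part of sensitivity in the counts was not tested. Of the 70 genes, 2 met the rule for genes mostly detected in the Dusp1-positive cells, Fos and Dusp4, a rule met by 1.07% of all genes. None met the reverse rule. The median difference of the 70 genes was 0.21 on the log2 scale, beside 0.04 over all 18193 genes. Over detected genes alone the medians were 0.23 and 0.15.

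**Figure D2:**
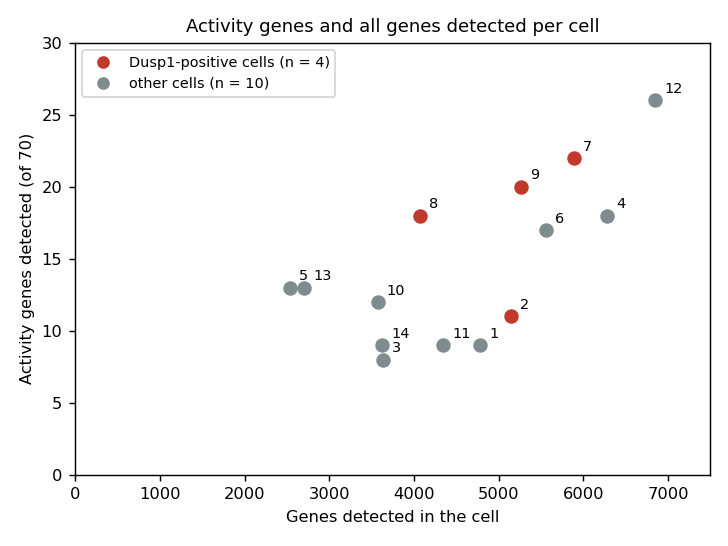
Number of the 70 early, effector and phosphatase genes (Dusp1 left out) detected in a cell, against the number of all genes detected in that cell, with 1 labelled point per cell. Cells 7, 8 and 9 lie among the upper points for their number of genes, cell 2 lies low with 11, and the Dusp1-negative cell 12 is highest on both axes.

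Upstream of these genes, the kinases of the MAP kinase pathway gave 37 measured members, 32 of them detected, and none met either rule. Their median difference was 0.09, near that of all genes. Map2k1, which phosphorylates ERK, was detected in all 4 at 1121 in cell 2, 2202 in cell 7, 2707 in cell 8 and 2501 in cell 9, and in 6 of the 10, whose signals were 3.08 to 10047, with a median of 624. Map2k4, a kinase of JNK, and Map2k5 were likewise detected in all 4, with differences of medians of 2.37 and 2.17. Mapkapk2, the kinase below p38, was at 502 in cell 2, 4.12 in cell 7, 1189.8 in cell 8 and 474 in cell 9 and detected in 3 of the 10. Mapk10, the neuronal JNK, was detected in all 14 cells at a difference of only 0.09. Spred1, an inhibitor of the ERK pathway, was detected in cells 7 and 8 and in 7 of the 10, and its difference was -2.40. Elk1, a partner of SRF, was detected in cell 8 alone.

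Genes of CREB and calcium signalling had a median difference of -0.21 over 32 measured members. The catalytic subunits of calcineurin, the calcium-dependent phosphatase, went apart. Ppp3ca was at 7084 in cell 2, 4606 in cell 7, 8004 in cell 8 and 824 in cell 9, against 26.7 to 14539.9, with a median of 1195, and was detected in 7 of the 10. Ppp3cb was detected in every cell but was at 6142.5 in cell 2, 4322 in cell 7, 2639 in cell 8 and 7741 in cell 9, against 6597 to 58558, with a median of 23767. For Ppp3cb 3 of the 4 cells lay below all of the 10, and only cell 9 lay within their range. Camk2a, the calmodulin kinase of excitatory synapses, was detected in none of the 4 and in 6 of the 10, up to 9743. Creb1 was detected in cell 12 alone, and the coactivator Crebbp in cells 2 and 9 of the 4.

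Genes whose products bind short-lived mRNAs showed no common direction. Zfp36 and Zfp36l1, which speed the decay of early gene mRNAs, were detected in no cell, and Zfp36l2 only in 5 Dusp1-negative cells. Hnrnpd, another factor of mRNA decay, was detected in all 4 at 1436 in cell 2, 2986 in cell 7, 6168 in cell 8 and 1714 in cell 9, and in 6 of the 10 with signals of 19.2 to 10931.5, with a median of 602.

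Of 31 heat shock chaperones measured, 28 were detected, none met a rule for detection, and the median difference was 0.25. Differences of at least 1 were seen in 29.0% of them, against 15.7% of all genes, and differences of -1 or lower in 9.68%, against 7.70%. The shares for all genes count 7605 genes that were detected in no cell. They are therefore an unlike measure for a list whose members were mostly detected. The median over detected members was 0.34, and without cells 5, 11, 13 and 14 it was 0.55, beside -0.06 for all detected genes. The inducible Hsp70 genes Hspa1a and Hspa1b, the standard sign of heat or protein stress, were detected in no cell. Hspa8, the constant form, was detected in all 14 cells at 42340.0 in cell 2, 74152 in cell 7, 90659 in cell 8 and 81732.5 in cell 9, against 29204 to 197435, with a median of 64101. The cochaperone Dnajc7 was detected in all 4, at 5959 in cell 2, 1718 in cell 7, 4949 in cell 8 and 5777 in cell 9. It was detected in 5 of the 10, whose signals were 3.91 to 3533, with a median of 788, and its difference of medians was 3.81. Some chaperones had lower medians. Hspa4, an exchange factor for Hsp70, was at 2.83 in cell 2, 88.5 in cell 7, 1.94 in cell 8 and 105 in cell 9, below the limit in all 4, and was detected in 6 of the 10 at up to 14436. The mitochondrial cochaperone Hspe1 was at 4049 in cell 2, 142 in cell 7, 39.6 in cell 8 and 1323 in cell 9, against 46.7 to 27728, with a median of 4871. Its partner Hspd1 went the other way with a difference of 1.56, where Hspe1 had -3.17.

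Of 29 endoplasmic reticulum and integrated stress genes, 26 were detected and the median difference was 0.11. Differences of at least 1 were seen in 24.1% and of -1 or lower in 3.45%, while the median over detected members turned from 0.12 to -0.33 without cells 5, 11, 13 and 14. Ddit3, the CHOP factor, reached 5856 in cell 7 and was not detected in cells 2, 8 and 9, while 4 of the 10 had it. Ppp1r15a, the early gene that reverses the block of translation, was detected in cell 9 alone, at 369. Chac1, which breaks down glutathione, was detected in cells 7 and 9 at 2601 and 4326, and in 2 Dusp1-negative cells. Xbp1 was at 1528 in cell 2, 689.9 in cell 7, 30.5 in cell 8 and 752 in cell 9, with detection in 4 of the 10. Atf4, the main factor of the pathway, was detected in all 4 and 9 of the 10 with a difference of -0.55.

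Metallothioneins, small proteins that hold zinc and copper, had lower medians in the Dusp1-positive cells. Mt3, the neural form, was detected in all 14 cells and was at 6801 in cell 2, 309.6 in cell 7, 1093 in cell 8 and 3264 in cell 9. The Dusp1-negative cells had 3477 to 52735, with a median of 29985, so that cells 7, 8 and 9 lay below all 10 and cell 2 lay within their range. The difference of medians of Mt3 was -3.96. Mt1 was at 48.4 in cell 2, 1674 in cell 7, 436 in cell 8 and 435 in cell 9, against 6.65 to 22019, with a median of 2973, and Mt2 at 57.5 in cell 2, 103 in cell 7, 195 in cell 8 and 68.2 in cell 9, against 2.46 to 21062, with a median of 616. For Mt1 and Mt2 the groups overlapped, with differences of -2.12 and -1.61. The wider list of oxidative and metal stress had 21 measured members and a median difference of -0.07, and Hmox1 was detected in cell 12 alone. Of its genes 23.8% had a difference of -1 or lower, against 7.70% of all genes, with the 7605 genes that no cell showed counted in the latter.

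The glucocorticoid list had a median difference of 0.61 over 15 genes, Dusp1 itself among them. Over its detected members the median was 0.65, and without cells 5, 11, 13 and 14 it was 0.29. The receptor gene Nr3c1 was detected in cell 8 alone, at 131. Fkbp5, a sensitive target, was at 43.6 in cell 2, 38.3 in cell 7, 5880.2 in cell 8 and 781 in cell 9 and detected in 3 of the 10. Tsc22d3, also called Gilz, was at 3271 in cell 2, 413 in cell 7, 5.19 in cell 8 and 369.8 in cell 9, with signals of 3.08 to 3601, with a median of 329.9 in the others. Klf9 was detected in all 4 and in 7 of the 10 with a difference of 0.67. Apart from Dusp1 no member met a rule. Of 17 genes of NF-kB and inflammation, 12 were detected in no cell and none met a rule.

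**Figure D3:**
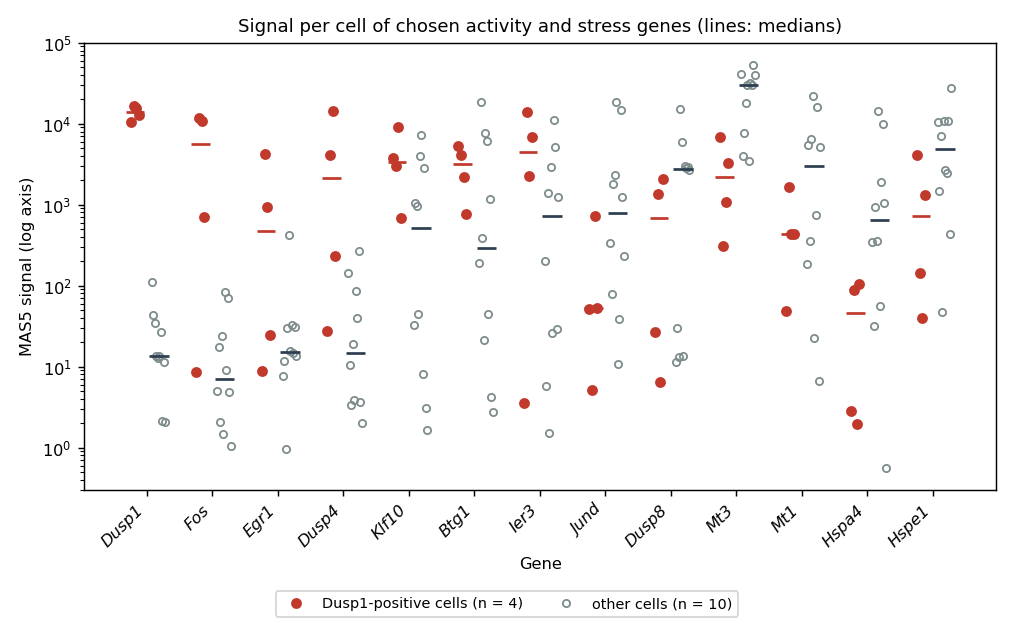
Signal of 13 activity and stress genes on a log axis, with 1 filled point per Dusp1-positive cell (n = 4), 1 open point per other cell (n = 10) and lines at the medians. The 13 genes were picked and do not stand for their whole lists. Of the chaperones, only Hspa4 and Hspe1 are plotted, both with lower medians in the Dusp1-positive cells, whereas Dnajc7 and Hspd1 had higher medians there. Dusp1 is the only gene plotted whose sets lie wholly apart, Fos has 1 low cell among the 4, and the Mt3 points of the 4 lie mostly under those of the 10.

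Among genes tied to axon injury, Nmnat2, an enzyme that keeps axons alive, was detected in all 4 cells, at 8411 in cell 2, 5139 in cell 7, 11741 in cell 8 and 3398 in cell 9. It was detected in 4 of the 10, with signals of 2.81 to 3827, with a median of 60.3 and a difference of medians of 6.16. Klf7, which favours axon growth, was at 4.005 in cell 2, 3219 in cell 7, 6345 in cell 8 and 8111 in cell 9, and 4 of the 10 had it at up to 17704. The injury genes Atf3, Ecel1, Sprr1a and Socs3 were detected in no cell, and Sox11 in cell 7 and 2 others. Gap43, the growth cone protein, was detected in all 14 cells with a difference of 0.00. The 25 measured genes of this list had a median difference of 0.12.

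Apoptosis genes showed both directions. Casp9, the initiator caspase of the mitochondrial route, was at 4972 in cell 2, 4565 in cell 7, 5764 in cell 8 and 66.5 in cell 9, with detection in 5 of the 10 at up to 3073. Bnip3, a mitochondrial protein of the BH3 class, had a lower median, with 1037 in cell 2, 1081 in cell 7, 3389.8 in cell 8 and 7.05 in cell 9, against 5.38 to 70563, with a median of 9927. The survival gene Bcl2 was detected in cell 7 alone, at 1264, and Bcl2l1 in all 4 and 8 of the 10. The death genes Bbc3, Pmaip1, Bcl2l11 and Hrk were detected in no cell.

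**Figure D4:**
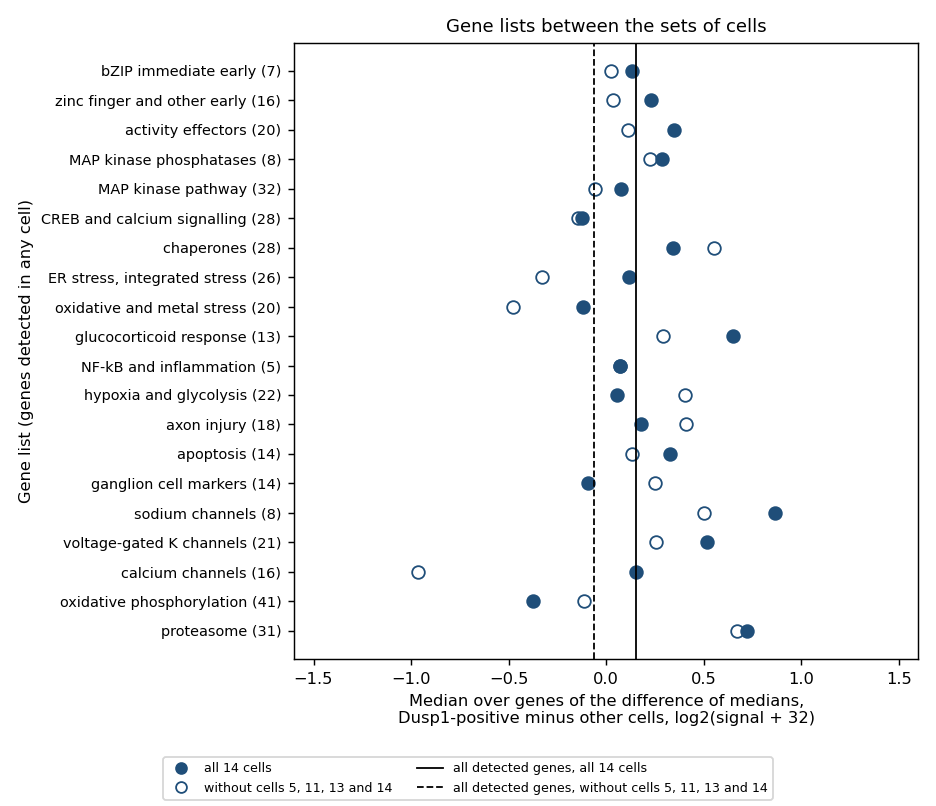
Median over the detected genes of each list of the difference of medians between the Dusp1-positive and the other cells, on log2(signal + 32), from all 14 cells (filled) and without cells 5, 11, 13 and 14 (open), with lines for all detected genes. The 4 lists of activity genes at the top lie between 0.13 and 0.35 with all cells, near the line for all detected genes at 0.15, and the sodium channel and proteasome lists lie farther to the right. The phosphatase and glucocorticoid lists include Dusp1, the gene that formed the sets.

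Over all genes, few followed the split. Besides Dusp1, only Ccdc181, a gene of cilia, had every one of the 4 cells at least 1 log2 unit above every one of the 10, and no gene was that far below (2 genes higher, or 0.011%, and 0 lower). Ccdc181 was at 3450.5 in cell 2, 4323 in cell 7, 6359.6 in cell 8 and 5856 in cell 9. It was detected in 4 of the 10, with signals of 7.33 to 1407, with a median of 112. With no minimum distance, 13 genes (0.0715%) had all 4 cells above all 10, and 12 of these were detected in all 4. The following genes were chosen after their values were seen. Maoa, the enzyme that breaks down serotonin and noradrenaline, was at 1452 in cell 2, 1292 in cell 7, 2353 in cell 8 and 1098 in cell 9, against 0.85 to 675, with a median of 61.5. Cand1, which regulates cullin ubiquitin ligases, was at 13656 in cell 2, 13419 in cell 7, 12748 in cell 8 and 15169.8 in cell 9, against 4.99 to 8440.1, with a median of 1371. Anxa2, a calcium-dependent membrane protein, was at 15166 in cell 2, 24064 in cell 7, 13114 in cell 8 and 20636 in cell 9, against 1.98 to 10349.7, with a median of 5848.

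In the other direction, 18 genes (0.0989%) had all 4 cells below all 10, but 10 of these were detected in no cell. Rpl38, a protein of the large ribosomal subunit and again chosen after its values were seen, was the one detected in all 4. It was at 3317 in cell 2, 2180.2 in cell 7, 1303 in cell 8 and 1031 in cell 9, against 4230.4 to 33422, with a median of 11264, a difference of medians of -2.69.

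By detection, 194 genes (1.07%) were mostly detected in the Dusp1-positive cells and 37 (0.203%) were mostly missing there. Of the 194 genes, 32 were detected in all 4 cells and 162 in 3 of them. Cell 8, the Dusp1-positive cell with fewest detected genes, was the missing cell for 74 of the 162, cell 2 for 39, cell 9 for 31 and cell 7 for 18. The Dusp1-negative cells that shared these genes were mainly those with many detected genes. Cell 12 had 44.3% of the 194, cell 4 had 42.8% and cell 6 had 24.7%, against 2.06% in cell 13 and 3.09% in cell 5. The part of this difference in depth was not tested.

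The 10 genes with the largest difference among the 194 included Dusp1 and Fos. Calb1, the calcium buffer calbindin, led them with 22748.5 in cell 2, 36529 in cell 7, 67.3 in cell 8 and 24366 in cell 9. Cells 4 and 12 also had it, and the Dusp1-negative cells ranged from 1.72 to 12627, with a median of 7.62. Its other 3 probe sets were each detected in 1 cell at most, in cell 7 or cell 13, so the difference of 9.22 rests on 1 probe set. Larp7, which holds the 7SK RNA that restrains transcription elongation, was detected in all 4, at 686 in cell 2, 6262 in cell 7, 11140.2 in cell 8 and 2998 in cell 9. Among the 10 it was detected in cells 6 and 12. The other probe set of Larp7 was detected in cells 7, 9 and 12 and not in cells 2 and 8. Mthfd2 encodes a mitochondrial enzyme of folate metabolism and is a target of ATF4. It was at 371 in cell 2, 2967 in cell 7, 8173 in cell 8 and 6772 in cell 9, and was detected in cells 6 and 11. The other probe set of Mthfd2 was detected in cells 2, 6, 7 and 8 and not in cell 9. Srrm2, a protein of nuclear speckles, was at 39.7 in cell 2, 2492 in cell 7, 17807 in cell 8 and 5366 in cell 9, but another of its probe sets was detected in cells 1, 3, 4, 6 and 12 and in none of the 4. The rest of the 10 were Wdr53, Bloc1s5, Pid1 and Msantd2, with differences of medians between 5.90 and 6.30. The other probe sets of Pid1 were detected in no cell. Of the 5 genes detected in exactly the cells with Fos (cells 7, 8 and 9), the others were Aldh7a1, Calr3, Prpf18 and Usp38, a pattern that 0.0275% of genes had.

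Dbp led the genes mostly missing in the Dusp1-positive cells. It encodes a bZIP factor under control of the circadian clock and was at 21.8 in cell 2, 2965 in cell 7, 43.2 in cell 8 and 59.4 in cell 9. It was detected in 8 of the 10, whose signals were 5.35 to 24610.4, with a median of 5682. The difference of medians was -5.95, and its other probe set was detected in 7 of the 10 and in none of the 4. Ndufa7, a subunit of respiratory complex I, was at 684 in cell 2, 35.1 in cell 7, 40.0 in cell 8 and 32.2 in cell 9, with detection in 9 of the 10. Its other 4 probe sets were each detected in cell 2 and 8 of the 10. C1qbp, a mitochondrial matrix protein, was at 28.3 in cell 2, 35.1 in cell 7, 3.38 in cell 8 and 3619 in cell 9, against 10.2 to 46321, with a median of 3844. Rtkn was detected in none of the 4 and in 8 of the 10. Flywch2, Abtb1, Rap1gap2, Aptx, Zfp385a and Epha10 completed the 10, with differences from -5.79 to -5.22. Stmn4, a stathmin chosen after its values were seen, was another gene detected in none of the 4, at 151.9 or less there, and was detected in 8 of the 10 with a median of 1113.

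**Figure D5:**
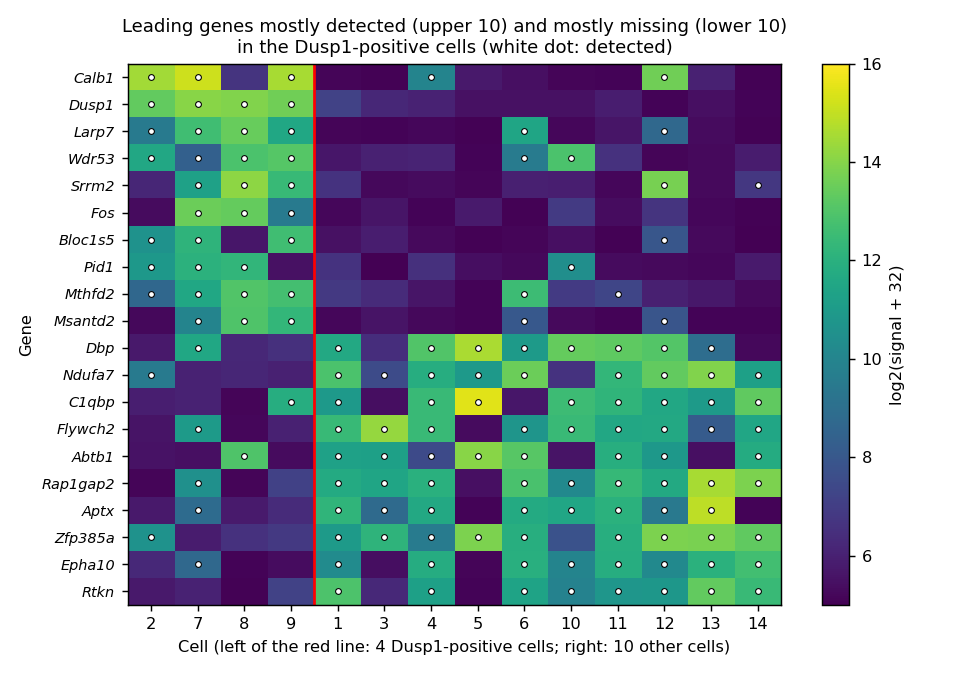
Signal as colour on log2(signal + 32) of the 10 genes with the largest difference of medians among those mostly detected in the Dusp1-positive cells (upper rows) and among those mostly missing there (lower rows), by cell. White dots mark detection. Of the upper genes, Dusp1 alone is dotted in all 4 cells left of the red line and in none to the right, and of the lower genes Rtkn alone is dotted in none of the 4.

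Promoters were at hand for 167 of the 194 genes. The full response element was in 5 of them (2.99%) and in 2.50% of the 14452 measured genes with a promoter, and a half-site in 38.3% and 25.9%. The CArG box, CC followed by 6 letters that are each A or T and then GG, was in 0 of the 167 genes and in 1.43% of all. The 14452 genes include genes that were detected in no cell, whereas all of the 167 were detected. The shares of the 14452 are therefore an unlike measure for the 167. Whether the 167 differ in these sites from detected genes alone was not tested. No test was made, since the 194 genes were chosen by the same values.

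Markers of ganglion cells were found in both sets. In all, 2327 genes (12.8%) were detected in every Dusp1-positive cell, and 480 of them in all 14 cells. Sncg, Nefl, Nefm, Thy1 and Slc17a6 were detected in all 14. The paper describes a PCR screen of the libraries for Sncg before hybridization, so its detection was part of the choice of cells. Nefm was at 28881 in cell 2, 41766 in cell 7, 31254.5 in cell 8 and 45329 in cell 9, against 18111 to 108887, with a median of 42899.7. Pvalb was detected in all 4 at 17752 in cell 2, 12762 in cell 7, 14627 in cell 8 and 10033 in cell 9, and in 9 of the 10 with signals of 7.27 to 65384.5, with a median of 14501.5. The median difference of the 15 marker genes was -0.11. Of 28 subtype genes measured, 2 were mostly detected in the Dusp1-positive cells, Calb1 and Fam163a, a rule met by 1.07% of all genes. Both were detected in cells 2, 7, 9, 4 and 12. Of the channels of excitability, Scn1a, the sodium channel Nav1.1, was at 78.6 in cell 2, 2278 in cell 7, 9237 in cell 8 and 6041 in cell 9, and was detected in cells 4 and 12 among the others, but its other probe sets were detected in 4 and 9 cells. Of 18 calcium channel genes measured, 1 was mostly missing, the T-type channel Cacna1g, a rule met by 0.203% of all genes. Cacna1g was at 3.72 in cell 2, 5.03 in cell 7, 705 in cell 8 and 6.57 in cell 9. The 10 had 4.75 to 8067, with a median of 424. Cacna1c, an L-type channel, was detected in none of the 4 and in 6 of the 10, with signals of 7.17 to 15000.3, with a median of 989 in the 10.

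Transcripts of other cells were looked for too. The paper had screened the libraries by PCR for the absence of rhodopsin and glutamine synthetase, markers of rods and Müller glia. The counts for these cell types are therefore from libraries chosen in part by such markers. Gnat1, the transducin of rods, was detected in none of the 4, at 26.5 in cell 2, 91.8 in cell 7, 2.26 in cell 8 and 3.01 in cell 9, and in 7 of the 10, up to 40909. Of 13 rod genes measured, the Dusp1-positive cells showed 1 to 3 and the others 1 to 10, and their summed signals were 792 to 8785 and 368 to 134989. The high end came from cells 3 and 6, which showed most rod genes. Cell 2 had Sag at 6472 and Rp1 at 1471, and cell 8 had the rod factor Nrl at 3272. The part of rod transcripts in the other differences was not tested, apart from the counts without cells 3 and 6 given with the other alternatives. Of 13 Müller glia genes the 4 cells showed 2 to 4 and the others 1 to 5, and of 10 bipolar cell genes 2 or 3 and 0 to 4. Microglial genes were detected in none of the 4 cells, and cone genes in none. Xist, the transcript of the inactive X chromosome, was detected in cells 7, 8 and 9 and in cell 10 of the others. Its signals in the 4 were 4.92 in cell 2, 347 in cell 7, 4359.6 in cell 8 and 1829 in cell 9, on the brightest of 3 probe sets. Of the other 2, 1 was detected in cell 8 alone, at 3985, and 1 in no cell. Eif2s3y of the Y chromosome was detected in cell 2, at 455, and in 4 of the 10. Cells 7, 8 and 9, which had Fos, thus carried the female mark on 1 probe set or more and cell 2 the male mark, and the sex or animal and the presence of Fos cannot be told apart among the 4 cells. Whether the sex or animal has a part in the other differences was not tested.

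By their whole profiles, the 4 cells were about as much like some Dusp1-negative cells as like each other. Pearson's r between 2 cells over all probe sets, on log2(signal + 32), was 0.62 to 0.73 for the 6 pairs of Dusp1-positive cells. Between these cells and cells 4, 6 and 12, the Dusp1-negative cells with most detected genes, it was 0.62 to 0.75. It was 0.43 to 0.75 over all 40 pairs of a Dusp1-positive and a Dusp1-negative cell. The cell most like cell 2 was cell 4 and the cell most like cell 7 was cell 12, whereas cell 8 was most like cell 9 and cell 9 most like cell 7. These correlations are across probe sets, which are not independent, and share the background of the array and the depth of the cells.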

How the data were processed

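Each of the 14 single cells had 1 array. The authors deposited 1 signal intensity per probe set, a linear value from MAS5, whose version the sources used here do not give. The 2% trimmed mean was 500.0 on every array. Amplification from the 3′ end by many PCR cycles loses low transcripts at random, so precision is set by the number of cells. From 45101 probe sets, 64 controls were left out. Of the rest, 34945 had 1 gene symbol in the array's annotation, 932 had several and 9160 had none here, and 34741 matched the RefSeq gene table (GRCm38.p6). Each gene was represented by its brightest probe set by mean log2 signal, which gave 18193 genes, 10588 of them detected in some cell. The members and the gene lists were chosen with earlier results of these data known.

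A gene was called higher or lower when all 4 cells were at least 1 log2 unit apart from all 10. Named genes were list members, the 20 genes with the largest gap among those called higher, 10 among those called lower, and 10 by difference of medians among those mostly detected and mostly missing (at most 1 of the 4, at least 8 of the 10, 2 log2 units). Others are said to have been chosen after their values were seen. The calls of higher and lower were run on shuffled values with planted differences far above the limit. That run checks the code and does not measure how well small differences are found. The rules for genes mostly detected and mostly missing were not checked in this way. Alternatives changed the pseudocount of 32, the detection limit, the choice of probe set, the scaling and the cells used. Python 3 code with pandas and numpy was used.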

Additional observations from a re-analysis of the deposited data

How the results depend on the processing

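The sets held 4 and 10 cells, and the counts of genes moved with single cells. Leaving out each Dusp1-positive cell in turn gave 4 to 9 genes higher, 0 to 0 lower, 53 to 110 mostly detected and 10 to 19 mostly missing. The limits for detection were kept as shares of the cells, rounded to the stricter side, so that all 3 remaining cells then had to show a gene mostly detected and none of them a gene mostly missing. The counts of genes higher were 7 without cell 2, 5 without cell 7, 9 without cell 8 and 4 without cell 9, and those mostly detected were 78, 53, 110 and 64. Without cells 5, 11, 13 and 14, which had few detected probe sets or stood apart in a tree of the cells in earlier work on these data, there were 7 genes higher, 3 lower, 105 mostly detected and 118 mostly missing, with the limits at 1 of the 6 others and 5 of the 6. Without cells 3 and 6, which held rod transcripts, there were 4 higher, 117 mostly detected and 21 mostly missing, with the limits at 1 of the 8 others and 7 of the 8. These counts thus mix the cells left out with tighter limits. When 2 exceptions among the others were allowed instead, a looser share chosen after seeing the data, the counts went up, to 299 mostly detected and 385 mostly missing without cells 5, 11, 13 and 14, and to 357 and 70 without cells 3 and 6. Among the cells with Xist, 3 against 1, there were 879 higher, 1067 lower, 692 mostly detected and 274 mostly missing. Quantile normalization gave 1 gene higher (Dusp1) and 61 mostly missing, and scaling each array to its median gave 4 higher. With detection at 4 times the array median, 129 were mostly detected. The cause of these changes was not tested beyond the limits given. The other alternatives kept each count within 1.5 times, although at a detection signal of 1000 only 33 of the 164 genes mostly detected were among the 194, and Fos and Dusp4, then detected in 2 of the 4 cells, no longer met the rule. Dusp4 also failed it under quantile normalization. Calb1 failed it when all its probe sets were averaged, with a difference of medians of 0.35, and also without cells 3 and 6, without cells 5, 11, 13 and 14, without cell 2, 7 or 9, and among the cells with Xist. Dbp was no longer mostly missing at a detection signal of 1000, without cell 2, 8 or 9, or among the cells with Xist. Fos and Dusp4 failed it as well without cell 7, 8 or 9. In all, 124 early and stress genes were followed through 14 alternatives. The difference of medians moved by less than the SD of the 10 cells in 1640 comparisons and by more in 96. Of the 96, 44 came from the alternative with only the cells with Xist. A change of the detection limit cannot move a difference of medians, so all 124 genes stayed the same there by design. No called gene changed sign. No paired analysis was possible because all cells belong to 1 labelled group.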

Other observations

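A list of 21 clock genes was drawn up after Dbp was seen to lead the genes mostly missing in the Dusp1-positive cells, so its values are a description only. All 21 genes were detected in some cell. Dbp was the only one that met a rule, and the median difference of the list was 0.70, opposite in sign to that of Dbp. Tef, a relative of Dbp, was detected in all 14 cells with a difference of 0.06. Clock itself was detected in all 4, at 449.6 in cell 2, 461 in cell 7, 516 in cell 8 and 388 in cell 9, and in 3 of the 10. Per3, a repressor of the clock, was at 77.9 in cell 2, 1050.0 in cell 7, 4.81 in cell 8 and 3261 in cell 9, and 1 of the 10 had it. Per2 was detected in none of the 4 and in 2 of the 10. Nr1d1 was detected in all 4 and in 9 of the 10 with a difference of 0.70.

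Proteasome subunits had a median difference of 0.72 over 31 genes, and 11 of them had a difference of at least 1 (35.5%, against 15.7% of all genes). The Dusp1-positive cells showed 30 or 31 of the 31 and the others 12 to 31. Subunits of oxidative phosphorylation had a median of -0.37 over 42 genes, and 15 of them were at -1 or lower (35.7%, against 7.70% of all genes). The shares for all genes count 7605 genes that were detected in no cell, so they are an unlike measure for these mostly detected subunits. Without cells 5, 11, 13 and 14, the medians over detected members were 0.67 for the proteasome and -0.12 for oxidative phosphorylation, beside -0.06 for all detected genes.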
